A study of Rattus norvegicus with 10 samples.

Results

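Pde11a and Camta1 are neuronal signalling genes that have been tied to memory, and each holds an intronic 1000 bp tile of hippocampal DNA methylation that was taken here as its anchor. The rule chose every tile whose start lies within 200 kb of the anchor tile's start, at chr3:61018001-61019000 for Pde11a and at chr5:162101001-162102000 for Camta1 (mRatBN7.2, the build of the deposited table). It gave 136 of the 176032 tiles in the table, 48 for Pde11a (the anchor and 47 neighbours) and 88 for Camta1 (the anchor and 87 neighbours). The anchors were picked because, in the study's own lists, they differed between the lines and were related to maximal oxygen uptake (VO2max) over the rats. Their difference is therefore a description and carries no test. The order of their values over rats was part of the choice too. The neighbours were picked by position alone. Both anchors are intronic in the annotation the study gave its listed tiles, and no other tile of either window was found in the rows of those lists that were read, which are part of the largest list, so whether a neighbour lies in an exon, an intron or between genes is not given.

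Female rats of generation 44, aged 23 to 24 months and untreated, came from lines bred for high (HCR) or low (LCR) running capacity. There were 4 rats of the HCR line (1, 11, 15 and 19) and 6 of the LCR line (12, 18, 22, 24, 26 and 30). Further HCR rats had been excluded by the study in quality control. Methylation of their hippocampal DNA was read by RRBS (reduced representation bisulfite sequencing), in which the enzyme MspI cuts at CCGG before conversion and CpG-rich fragments are sequenced. The lines differ by many generations of breeding, so a sequence difference between them and a difference in methylation cannot be told apart in these values. Whole hippocampus holds many cell types, and a change in their shares and a change within a type cannot be told apart either. Each value is the percentage of CpG calls that were methylated in a tile of one rat, and a tile without a value is blank. How many reads stand behind a value is unknown, and counting intervals are therefore left out. The tiles with a value numbered 165792 to 174009 in HCR and 157010 to 170745 in LCR rats. The 126459 tiles measured in all rats averaged 48.5% ± 2.39 (SD, n = 4) in HCR against 46.6% ± 2.31 (SD, n = 6) in LCR rats, and the lines overlapped. As DNA alone was measured, the labelled tissue was not checked against marker genes. Libraries were pooled before bisulfite conversion, and as the members of a pool are not named, no values within pools can be given.

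Phosphodiesterases end the signal of cyclic nucleotides. PDE11A breaks down both cAMP and cGMP, and in the rodent brain it is expressed mainly in the hippocampus, where it has been studied in social memory. CAMTA1 is a transcription activator that binds calmodulin, the calcium sensor of the cell, is abundant in brain, and has been linked to episodic memory in human cohorts. Methylation of CpGs inside a gene is read apart from that at a start site: CpG-rich start sites of active genes are usually unmethylated, while gene bodies are usually methylated.

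RRBS can sample a start site only where CCGG occurs, so start site sequences of both genes are shown with each CCGG in capitals. They come from RefSeq on GRCr8, another build than that of the table, and were therefore not placed on tiles. Each runs from 250 bases before to 50 after an annotated start, on the minus strand, at chr3:81680563-81680862 and chr3:81587041-81587340 for 2 of the 3 Pde11a starts and at chr5:167639391-167639690 for Camta1.
Pde11a, CpG-rich start: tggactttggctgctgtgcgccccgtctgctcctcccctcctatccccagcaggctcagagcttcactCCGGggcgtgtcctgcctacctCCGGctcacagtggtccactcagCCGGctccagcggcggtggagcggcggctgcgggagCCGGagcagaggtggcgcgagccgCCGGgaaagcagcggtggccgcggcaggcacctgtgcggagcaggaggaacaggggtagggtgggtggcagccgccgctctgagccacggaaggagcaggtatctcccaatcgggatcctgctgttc
Pde11a, start without CCGG: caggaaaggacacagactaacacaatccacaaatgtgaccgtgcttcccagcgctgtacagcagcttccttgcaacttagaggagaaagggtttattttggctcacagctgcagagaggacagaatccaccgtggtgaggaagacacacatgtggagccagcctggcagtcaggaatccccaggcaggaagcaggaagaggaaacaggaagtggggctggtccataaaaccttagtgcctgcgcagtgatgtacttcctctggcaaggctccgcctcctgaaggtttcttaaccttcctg
Camta1 start: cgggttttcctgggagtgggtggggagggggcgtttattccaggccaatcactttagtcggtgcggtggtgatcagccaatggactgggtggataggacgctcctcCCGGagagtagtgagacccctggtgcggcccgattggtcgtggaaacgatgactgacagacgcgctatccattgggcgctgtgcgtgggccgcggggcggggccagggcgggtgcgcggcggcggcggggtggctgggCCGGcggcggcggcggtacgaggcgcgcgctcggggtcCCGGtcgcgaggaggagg

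The CpG-rich Pde11a start holds 5 CCGG and 24 CG pairs at 69.7% G and C, while the start without CCGG holds 5 CG pairs. The remaining Pde11a start has 1 CCGG and 8 CG pairs. The Camta1 start holds 3 CCGG and 36 CG pairs at 70.3% G and C, more CG pairs than 94.6% of the 33469 annotated rat promoters of the same length. CCGG, which reads the same on both strands, occurs in 51.4% of those promoters, and their median is 7 CG pairs. A match is a description of the sequence and says nothing of its methylation.

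The Pde11a anchor tile was methylated at an intermediate level and stood higher in HCR rats. It read 47.5%, 53.5%, 51.1% and 59.9% in HCR rats 1, 11, 15 and 19. In LCR rats 12, 18, 22, 24, 26 and 30 it read 37.6%, 40.8%, 38.4%, 46.9%, 41.1% and 41.1%. All HCR values lay above all LCR values, although the lowest HCR rat and LCR rat 24 were close. The means were 53.0% ± 5.22 (SD, n = 4) and 41.0% ± 3.25 (SD, n = 6), a difference of 12.0 points. It was 9.72 to 13.9 points with any one rat left out and 6.14 points after quantile normalization between rats.

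The Camta1 anchor tile lay at a higher level, with the same direction. It read 71.8%, 72.8% and 80.7% in HCR rats 11, 15 and 19, and HCR rat 1 had no value. In LCR rats 12, 18, 22, 24, 26 and 30 it read 62.0%, 66.0%, 67.2%, 67.5%, 68.3% and 57.4%. The lines again did not overlap, with LCR rat 26 nearest to the HCR rats. The means were 75.1% ± 4.88 (SD, n = 3) and 64.7% ± 4.25 (SD, n = 6), a difference of 10.3 points, which was 5.12 points after quantile normalization.

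**Figure D1:**
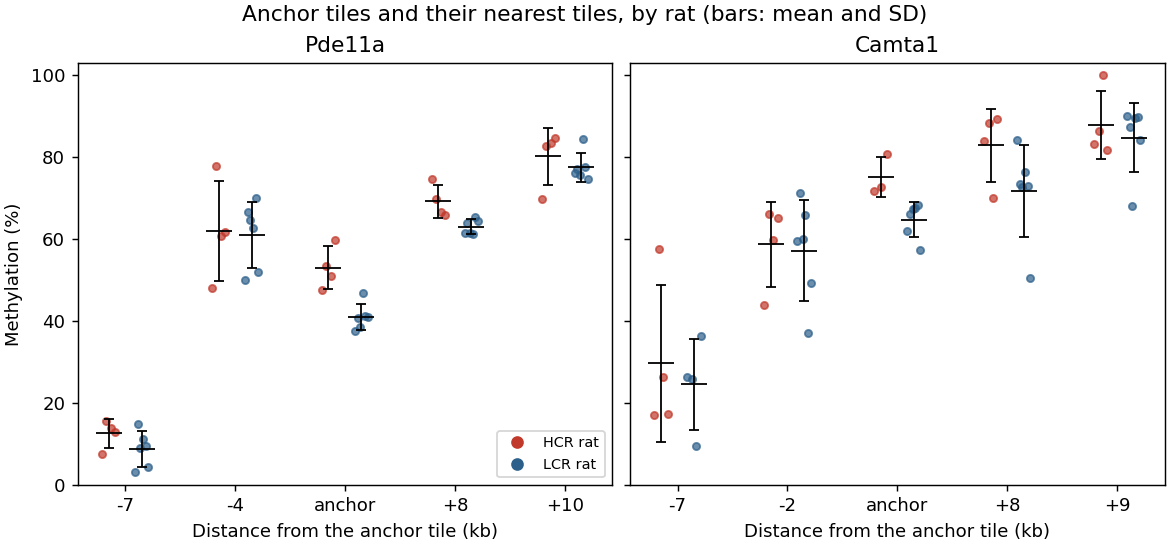
Methylation (%) of the anchor tiles of Pde11a (left) and Camta1 (right) and of 4 of the nearest tiles, at the distance from the anchor (kb) on the horizontal axis. Points are rats, and bars give the mean and SD of each line; at the Pde11a anchor the HCR rats lie between 47.5% and 59.9% and the LCR rats between 37.6% and 46.9%, while 4 kb below it the lines overlap.

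Both anchors varied less between rats of a line than most tiles of their level. The pooled SD within lines was 4.10 points at the Pde11a anchor, against a median of 9.51 over its neighbours and of 12.5 over the 19418 tiles of the table within 10 points of its level. Of those, 0.984% had a smaller SD. At the Camta1 anchor it was 4.44 points, against 7.96 over its neighbours and 10.6 over 30502 tiles of like level, of which 4.02% had a smaller SD. A small SD is part of what puts a tile on a list of differences, so these values follow in part from the choice of the anchors. The size of the difference was more common: 17.6% of tiles of like level were higher in HCR by more than the Pde11a anchor and 19.3% by more than the Camta1 anchor. Among the neighbours, 5 of 47 and 9 of 87 were, in the same direction.

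The tiles nearest to the Pde11a anchor did not share its difference in size. At 4 kb below it (toward lower coordinates) the level was 62.1% ± 12.2 (SD, n = 4) in HCR against 61.0% ± 8.14 (SD, n = 6) in LCR rats. HCR rats spanned 48.0% to 77.8% there and LCR rats 50% to 70.0%, one range inside the other. At 7 kb below, the DNA was largely unmethylated, with 12.5% ± 3.46 (SD, n = 4) and 8.68% ± 4.33 (SD, n = 6). The levels 22 kb below were 65.7% ± 13.2 (SD, n = 3) and 72.7% ± 12.3 (SD, n = 4), a lower mean in HCR. At 3 tiles on that side, then, the lines overlapped in each. On the other side, 8 kb above the anchor, HCR rats 1, 11, 15 and 19 read 74.6%, 69.8%, 66.6% and 65.8%, and LCR rats 12, 18, 22, 24, 26 and 30 read 61.4%, 64.0%, 61.5%, 61.3%, 65.3% and 64.4%. This was the only neighbour in the Pde11a window without overlap between the lines. Its means were 69.2% ± 4.0 (SD, n = 4) and 63.0% ± 1.80 (SD, n = 6), 6.19 points apart, and the limma test found no difference at the limit used (adjusted p = 0.791). After quantile normalization the gap was 1.08 points. HCR rat 1, the lowest HCR rat at the anchor, was the highest here. The tiles 10 kb and 14 kb above differed by 2.59 and -0.94 points and overlapped.

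Around the Camta1 anchor the nearest tile, 2 kb below, was at 58.7% ± 10.3 (SD, n = 4) in HCR against 57.2% ± 12.3 (SD, n = 6) in LCR rats. The tile 7 kb below was at 29.6% ± 19.2 (SD, n = 4) and 24.5% ± 11.1 (SD, n = 4), and that 16 kb below at 52.5% ± 10.95 (SD, n = 4) and 42.7% ± 13.8 (SD, n = 6). The lines overlapped in all 3. At 8 kb above, the means were 82.9% ± 8.96 (SD, n = 4) and 71.7% ± 11.3 (SD, n = 6), a gap of 11.2 points that is as wide as that of the anchor but with HCR rat 15 at 69.9% below 5 of the 6 LCR rats. In limma its adjusted p was 0.763. The tile 9 kb above differed by 3.07 points, and the tile 19 kb above by -8.41 points with 51.9% ± 13.9 (SD, n = 4) in HCR against 60.3% ± 5.53 (SD, n = 6) in LCR rats. Positive and negative differences thus stood within 20 kb of each other.

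**Figure D2:**
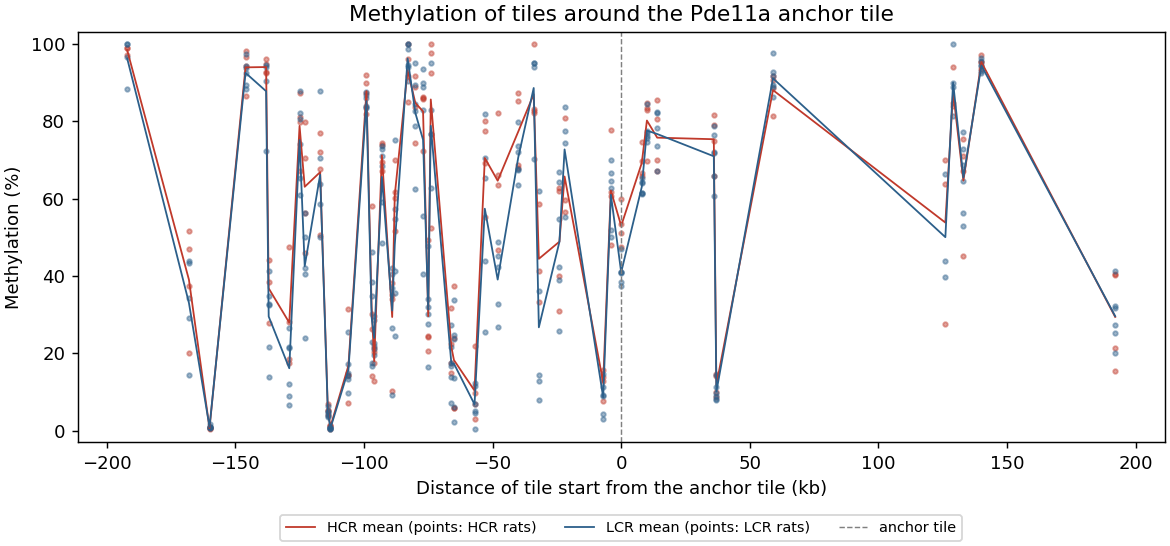
Methylation (%) of each tile within 200 kb of the Pde11a anchor against its distance from the anchor (kb); points are rats (red HCR, blue LCR) and lines join the means of each line of rats. Levels swing between 0.708% and 98.4% (HCR means), and both lines follow the same profile.

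The Pde11a window was a patchwork of levels. Of the 47 neighbours, 9 had a level (the mean of the line means) under 20%, 27 lay from 20 to 80% and 11 above 80%. Intermediate tiles thus made up 57.4% of the neighbours, against 39.8% of all tested tiles. The lowest tile, 160 kb below the anchor, was unmethylated in every rat, at 0.708% ± 0.213 (SD, n = 4) in HCR against 1.01% ± 0.337 (SD, n = 6) in LCR rats. Next in order of level were 2 adjoining tiles, 113 kb and 114 kb below, with HCR means of 1.08% and 5.39% and LCR means of 0.680% and 4.75%. Full methylation was met 192 kb below, at 98.4% ± 1.0 (SD, n = 3) and 96.2% ± 5.44 (SD, n = 4). In RefSeq's order the genes beside Pde11a are Ift70a1, a gene of intraflagellar transport, on one side and Cyct, the testis cytochrome c, on the other, but which tiles belong to them was not placed.

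No Pde11a neighbour was called in limma, which was fitted on all 176004 tiles that could be tested and adjusted over all of them. A call needed an adjusted p under 0.1 and at least 5 points. Calls were made in 151 of all tested tiles, which is 0.0858%, so that 0 of 47 is close to what that rate gives. The lowest adjusted p was 0.563. At an unadjusted p under 0.05 with at least 5 points, 1 neighbour was higher in HCR and 0 were lower, against 4.87% and 1.22% of all tiles, or 6.09% in either direction. A gap of at least 5 points was found upward in 14 neighbours and downward in 2, against 25% and 8.67% of all tiles, and 1 of 47 had no overlap, against 2.69%.

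The direction of the neighbours leaned to HCR in the deposited values, as it did over the table. The mean was higher in HCR in 35 of 47 neighbours (74.5%) and in 64.7% of all tiles. Intermediate tiles made up 57.4% of the neighbours against 39.8% of all tiles. Intermediate neighbours had a median difference of 3.77 points, against 3.41 over all intermediate tiles. High neighbours had 1.42 points against 1.26, and low neighbours 1.06 against 0.149. Over all levels together, the median difference of the neighbours was 2.54 points against 1.01 over all tiles, a comparison of unlike mixes of level. The median was 0.629 points with 25 higher and 22 lower when rat means were set equal, 0.687 points with 30 and 17 with the rat's mean level as a covariate, and it turned to -0.253 points with 23 and 24 after quantile normalization. The median of all tiles under those settings was -0.904, 0.109 and -0.241 points, with 42.8%, 52.5% and 44.2% of tiles higher in HCR. Single rats also moved the median of the neighbours: 4.64 points without HCR rat 1, 1.11 without HCR rat 19 and 1.46 without LCR rat 30. By distance, the median was 2.59 points over the 5 tiles within 20 kb, 3.08 over 8 tiles up to 50 kb, 2.68 over 16 up to 100 kb and 1.24 over 18 beyond that. Below the anchor 29 of 36 tiles were higher in HCR, and above it 6 of 11.

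The widest gap in the Pde11a window lay 48 kb below the anchor, at chr3:60970001-60971000. HCR rats 1, 11, 15 and 19 read 82.1%, 63.6%, 46.8% and 66.0%. LCR rats 12, 18, 22, 24 and 30 read 26.7%, 45.1%, 48.7%, 42.2% and 32.7%, and LCR rat 26 had no value. HCR rat 15 lay below LCR rat 22, and the remaining HCR rats stood above every LCR rat. The means were 64.6% ± 14.4 (SD, n = 4) and 39.1% ± 9.12 (SD, n = 5), 25.5 points apart, with limma's unadjusted p = 0.0141 and adjusted p = 0.563. The gap was over 2 times that of the anchor, and the pooled SD of 11.7 points was larger too. Next by p came the tile 123 kb below, at 63.1% ± 15.03 (SD, n = 4) and 42.6% ± 12.2 (SD, n = 5), with limma's adjusted p = 0.701. Its 20.5 points became 12.7 with the rat's mean level as a covariate. The tile 129 kb below was at 28.0% ± 13.9 (SD, n = 4) and 16.2% ± 8.03 (SD, n = 6), where HCR rat 11 at 47.5% set the mean apart. Without that rat the gap was 5.27 points. The tile 96 kb below was the one of these with a lower mean in HCR, 18.03% ± 3.87 (SD, n = 4) against 24.0% ± 4.23 (SD, n = 6). Its limma adjusted p was 0.718. The tile 53 kb below showed the largest range over rats, 56.5 points, from 25.5% in LCR rat 22 to 81.9% in LCR rat 24, both of the same line.

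**Figure D3:**
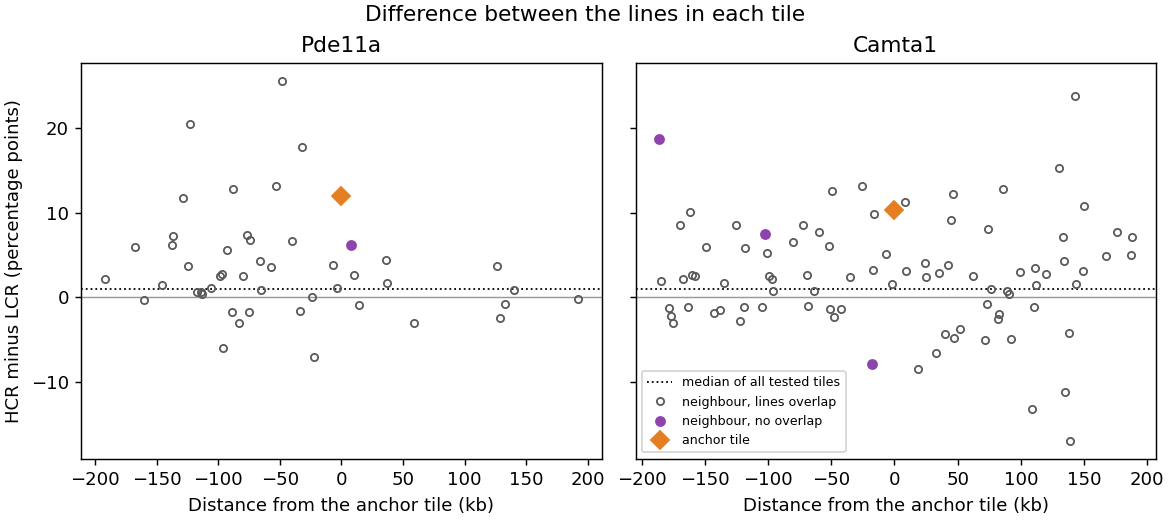
Difference between line means (HCR minus LCR, percentage points) of every tile within 200 kb of the Pde11a (left) and Camta1 (right) anchors, against distance from the anchor (kb). Diamonds are the anchors, filled points the neighbours without overlap between lines (1 and 3), and the dotted line is the median of all tested tiles, 1.01 points. As deposited the neighbours' medians were 2.54 and 2.49 points. After quantile normalization they were -0.253 and -1.43, against -0.241 over all tiles.

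The Camta1 window was denser, with 43 neighbours below and 44 above the anchor. Of the 87 neighbours, 11 had a level under 20%, 48 lay from 20 to 80% and 28 above 80%, and the median level was 66.4%. The lowest tile, 97 kb below the anchor, was at 5.47% ± 2.81 (SD, n = 4) in HCR against 3.31% ± 2.34 (SD, n = 6) in LCR rats. The highest, 51 kb below, was at 94.2% ± 4.04 (SD, n = 4) and 95.6% ± 4.53 (SD, n = 6). Level could change between adjoining tiles: 51 kb and 52 kb below, the HCR means were 94.2% and 27.0%. RefSeq's order puts Vamp3, which encodes a vesicle fusion protein, next to Camta1, then Per3, a gene of the circadian clock. Their tiles were not placed either.

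**Figure D4:**
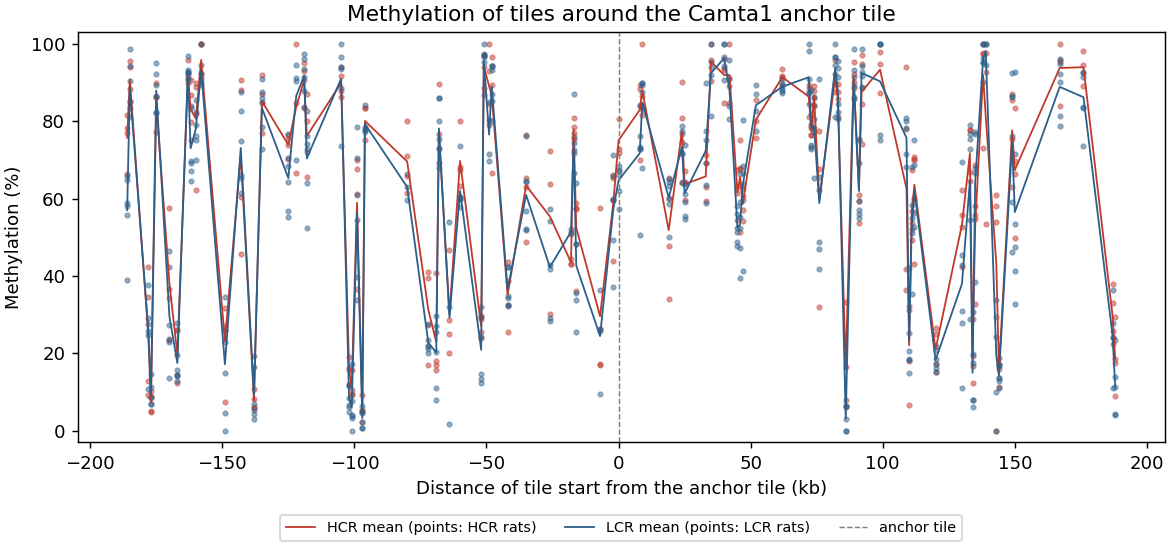
Methylation (%) of each tile within 200 kb of the Camta1 anchor against its distance from the anchor (kb); points are rats (red HCR, blue LCR) and lines join the means of each line of rats. HCR means run from 5.47% to 95.9%, and both lines follow the same profile.

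None of the 87 Camta1 neighbours was called in limma either, with a lowest adjusted p of 0.304. Over all tiles 0.0858% were called, so that 0 of 87 is close to what that rate gives. At an unadjusted p under 0.05 with at least 5 points, 4 were higher in HCR and 0 lower, against 4.87% and 1.22% of all tiles. There were 28 neighbours with at least 5 points upward and 7 downward, against 25% and 8.67% of all tiles. Overlap between lines was missing in 3 neighbours, 2 upward and 1 downward by at least 5 points, against 1.82% and 0.505% of all tiles. The mean was higher in HCR in 58 of 87 (66.7%), close to the 64.7% of all tiles. The median difference was 2.49 points, against 1.01 over all tiles. It became 0.524 with 49 higher and 38 lower (56.3% higher) when rat means were set equal. Under the covariate it was 0.00389 with 44 and 43 (50.6%), and it turned to -1.43 with 38 and 49 (43.7%) after quantile normalization. Over all tiles the medians under those settings were -0.904, 0.109 and -0.241 points, with 42.8%, 52.5% and 44.2% higher in HCR. As deposited, the median of the neighbours was 1.10 points without HCR rat 11, 3.97 without HCR rat 15, 1.35 without HCR rat 19 and 1.61 without LCR rat 30. As deposited, the lean to HCR was seen in the low and intermediate tiles, with 9 of 11 and 36 of 48 (75%) higher. Over all low and intermediate tiles of the table, 61.2% and 68.0% were higher. The median was 2.73 points in the low tiles against 0.149 over all low tiles. In the intermediate tiles it was 3.16 points against 3.41. The 28 high tiles split 13 and 15, with a median of -1.12 points against 1.26 over all high tiles of the table. By distance the medians were 3.13 points (8 tiles within 20 kb), 2.67 (14 tiles up to 50 kb), 0.879 (24 tiles up to 100 kb) and 2.59 (41 tiles beyond), with no steady order.

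The Camta1 neighbour with the smallest p lay 102 kb below the anchor, at chr5:161999001-162000000, in DNA of low methylation. HCR rats 1, 11, 15 and 19 read 15.6%, 19.1%, 16.3% and 12.2%. LCR rats 12, 18, 22, 24, 26 and 30 read 4.76%, 8.54%, 11.5%, 11.8%, 6.23% and 6.71%. The lines did not overlap, though HCR rat 19 and LCR rat 24 nearly met. The means were 15.8% ± 2.82 (SD, n = 4) and 8.26% ± 2.90 (SD, n = 6), 7.53 points apart, with limma's unadjusted p = 0.00122 and adjusted p = 0.304. The adjoining tile, 1 kb nearer to the anchor, read 11.3% ± 3.03 (SD, n = 4) and 6.06% ± 6.04 (SD, n = 6), with overlap. The lowest tile of the window, 97 kb below, differed by 2.16 points, and between them lay a tile at 58.9% in HCR and 56.3% in LCR rats.

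The tile 186 kb below, at chr5:161915001-161916000, had the widest gap among the Camta1 neighbours without overlap. HCR rats 1, 11, 15 and 19 read 78.2%, 81.6%, 66.3% and 77.0%. LCR rats 12, 18, 22, 24, 26 and 30 read 64.9%, 39.0%, 58.0%, 65.9%, 55.6% and 58.8%. HCR rat 15 and LCR rat 24 nearly met, and LCR rat 18 was the lowest. The means were 75.8% ± 6.62 (SD, n = 4) and 57.0% ± 9.70 (SD, n = 6), 18.7 points apart, with limma's adjusted p = 0.528. The tile 1 kb beyond it toward the anchor, at 89.8%, differed by 1.94 points. The tile without overlap in the other direction lay 18 kb below the anchor, with 43.2%, 44.4% and 43.1% in HCR rats 1, 11 and 15 and 52.0%, 50.9% and 51.4% in LCR rats 22, 26 and 30. The other 4 rats had no value. Limma's adjusted p was 0.887, and 0.240 without the mean-variance trend, which lends a tile the spread of tiles of like level. The next tiles, 17 kb and 16 kb below, had higher means in HCR, by 3.19 and 9.81 points.

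Among the further Camta1 neighbours with small p, the tile 86 kb above was nearly unmethylated in LCR rats, at 3.17% ± 3.18 (SD, n = 5), and at 16.01% ± 12.4 (SD, n = 4) in HCR. HCR rats 15 and 19 read 16.5% and 33.3% while HCR rats 1 and 11 read 8.09% and 6.14%, so that the mean rested on the first 2, and without HCR rat 19 the gap of 12.8 points became 7.07. The tile 49 kb below was at 89.1% ± 9.27 (SD, n = 4) and 76.6% ± 7.19 (SD, n = 4), and that 74 kb above at 86.7% ± 2.19 (SD, n = 4) and 78.6% ± 7.38 (SD, n = 6). The lines overlapped in all of these, and limma's adjusted p was 0.624, 0.686 and 0.714. The largest range was 61.0 points, 143 kb above, where HCR rat 15 and LCR rat 18 both read 0% and HCR rat 19 read 61.0%. The most negative difference, -16.9 points, was found 139 kb above, where 3 rats of each line had a value. It rested on HCR rat 15 at 53.4%, since HCR rats 11 and 19 read 92.7% and 97.6% and the LCR rats 94.4% to 100%.

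The anchors were also set against the mean level of their own window in each rat. This takes off a shift that is equal in all tiles. A shift that differs with level is taken off only in part, as the windows mix low, intermediate and high tiles. At Pde11a the mean of the neighbours differed by 2.37 points between the lines. The median difference of its intermediate neighbours was 3.77 points. The 31 Pde11a neighbours with a value in all rats averaged 50% ± 3.56 (SD, n = 4) in HCR against 47.6% ± 2.78 (SD, n = 6) in LCR rats, with overlap. The anchor stood 2.22, 2.83, 0.914 and 5.98 points above that mean in HCR rats 1, 11, 15 and 19. In LCR rats 12, 18, 22, 24, 26 and 30 the anchor minus that mean was -7.24, -9.87, -8.65, -4.43, -5.95 and -3.84 points. The anchor was thus above the mean of those neighbours in all HCR rats and below it in all LCR rats. On average it stood at 2.98 ± 2.15 (SD, n = 4) against -6.66 ± 2.37 (SD, n = 6) points. Which side of that mean it falls on depends on the mix of levels among the neighbours. LCR rats 24 and 18 had neighbour means about as high as HCR rats 11 and 15 but lower anchors.

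At Camta1 the same subtraction left overlap. The 63 neighbours measured in every rat averaged 60.5% ± 3.65 (SD, n = 4) in HCR against 57.7% ± 3.95 (SD, n = 6) in LCR rats. The anchor stood above them in every rat with a value, by 8.83, 16.7 and 16.7 points in HCR rats 11, 15 and 19 and by 3.70 to 13.3 points in LCR rats. LCR rats 22 and 26, at 11.9 and 13.3 points, passed HCR rat 11. The means were 14.1 ± 4.55 (SD, n = 3) and 7.0 ± 4.38 (SD, n = 6) points. These differences use the anchors and are given as descriptions.

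**Figure D5:**
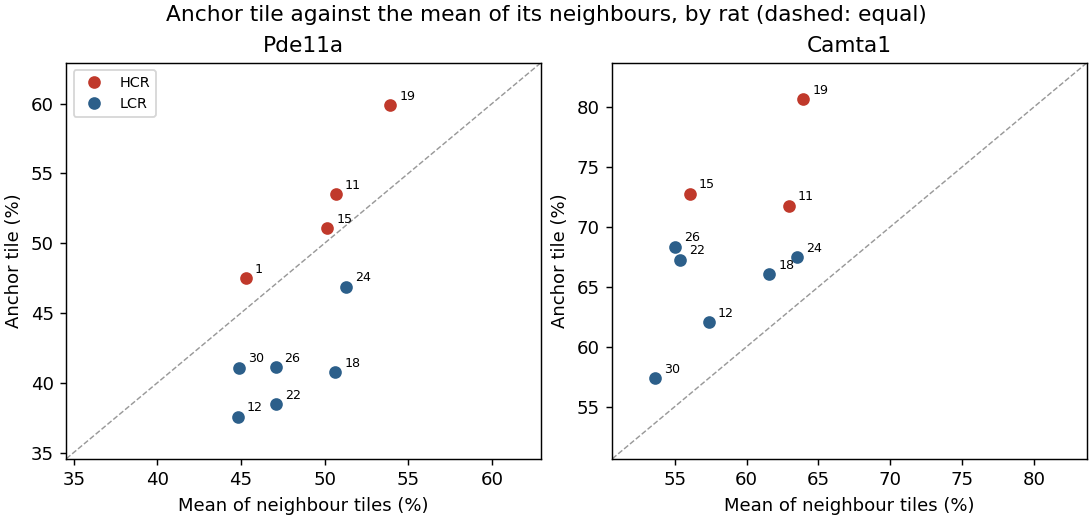
Methylation (%) of the anchor tile against the mean of its neighbours measured in every rat (31 tiles for Pde11a, left, and 63 for Camta1, right); each point is 1 rat with its number, and the dashed line marks equal values. The HCR rats lie above the line and the LCR rats below it at Pde11a, and all 9 rats with a value lie above it at Camta1.

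A second Camta1 tile was in the study's lists, at an exon in a CpG shore, the flank of a CpG island. It lies 566 kb below the anchor at chr5:161535001-161536000, outside the window. HCR rats 1, 11, 15 and 19 read 83.8%, 74.1%, 70.9% and 72.8%, and LCR rats 12, 18, 22, 24, 26 and 30 read 64.6%, 67.2%, 63.4%, 74.3%, 58.9% and 59.6%. LCR rat 24 overlapped with the HCR rats. The means were 75.4% ± 5.74 (SD, n = 4) and 64.7% ± 5.66 (SD, n = 6), 10.7 points apart, a gap of the size seen at the intronic anchor. This tile too was chosen by the study on these rats, and the difference is a description. The tile 1 kb above it was at 91.2% ± 1.54 (SD, n = 4) and 92.1% ± 3.06 (SD, n = 6), and the tile 1 kb below it differed by 8.45 points with overlap.

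Between the exon tile and the anchor lay 148 tiles, which include the 43 window neighbours below the anchor. Of the 148, 107 had a higher mean in HCR (72.3%), against 64.7% of all tiles. The mixes of level are unlike: 52.7% were intermediate, against 39.8% of all tiles, and 68.0% of all intermediate tiles were higher in HCR. In limma 0 of the 148 were called, against 0.0858% of all tiles, so that 0 is close to what that rate gives. At an unadjusted p under 0.05 with at least 5 points 9 were higher and 0 lower, against 4.87% and 1.22% of all tiles. Of the 105 of them outside the window, 3 had no overlap between the lines, close to the 2.69% of all tiles. The one with the smallest p lay 231 kb below the anchor, at chr5:161870001-161871000, where HCR rats 1, 11, 15 and 19 read 33.3%, 40.5%, 43.4% and 33.9%. LCR rats 12, 18, 22, 24, 26 and 30 read 22.4%, 23.6%, 20.1%, 28.4%, 21.7% and 11.4%, all below the HCR rats. The means were 37.8% ± 4.95 (SD, n = 4) and 21.3% ± 5.60 (SD, n = 6), 16.5 points apart, with limma's unadjusted p = 0.00204 and adjusted p = 0.347. The tile 211 kb below, the first one outside the window, was at 80.7% ± 3.52 (SD, n = 4) and 68.9% ± 7.94 (SD, n = 5), and limma's adjusted p was 0.639. It is the next tile of the table to the one 186 kb below. The tile 494 kb below was at 47.3% ± 6.46 (SD, n = 3) and 31.8% ± 10.97 (SD, n = 4).

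At the limits of the Pde11a window, the last tiles inside, 192 kb below and above the anchor, differed by 2.13 and -0.21 points, and the first ones outside, 255 kb below and 234 kb above, by 11.6 and 7.31 points with overlap. At Camta1 the edge below fell between the tiles without overlap just described, at 18.7 and 11.8 points. Above, the last tile inside (188 kb) differed by 7.10 points and the first outside (203 kb) by 8.76 points.

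Genes of cyclic nucleotide signalling were followed in a list of 47, mainly of phosphodiesterases, adenylyl and guanylyl cyclases and protein kinases. Whether they act with PDE11A was not tested. Tiles could be given to a gene only through the study's lists of tiles that differ between the lines, the largest of them read in part. The counts are thus incomplete and no independent evidence of a difference. They gave 12 tiles of 11 genes, 10 with a higher and 2 with a lower mean in HCR, and 2 were called in limma (adjusted p under 0.1, at least 5 points), against 0.0858% of all tiles, from which nothing can be read for tiles chosen by their difference. An intronic tile of Pde7b, which encodes a cAMP phosphodiesterase, was at 75.7% ± 1.52 (SD, n = 3) in HCR against 95.7% ± 3.17 (SD, n = 5) in LCR rats, without overlap and with limma's adjusted p = 0.0669. An exonic tile of Adcy9, an adenylyl cyclase that makes cAMP, was at 9.89% ± 1.60 (SD, n = 4) and 2.37% ± 2.16 (SD, n = 6), without overlap and with limma's adjusted p = 0.0757. The former was lower and the latter higher in HCR. The number of calls was 1 or 0 with any rat left out, 0 on the logit scale and 0 with the rat's mean level as a covariate. Prkar1a, a regulatory subunit of protein kinase A, was at 31.1% ± 3.73 (SD, n = 4) and 19.2% ± 4.97 (SD, n = 6) in a tile upstream of the gene, and Pde4a, another cAMP phosphodiesterase, at 96.7% ± 5.55 (SD, n = 4) and 86.2% ± 3.93 (SD, n = 6) in an exon. Neither passed, at limma's adjusted p = 0.422 and 0.427.

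The 30 genes listed around calmodulin and CAMTA factors had 8 tiles of 7 genes, from the same incomplete source. The mean was higher in HCR in 5 and lower in 3. In limma 0 were called, against 0.0858% of all tiles. At an unadjusted p under 0.05 with at least 5 points 5 passed, against 6.09% of all tiles. These tiles too were chosen by the study for their difference, so nothing can be read from either comparison. The 4 with the smallest p were led by an intronic tile of Camk1d, a calcium and calmodulin dependent kinase, at 90.2% ± 5.52 (SD, n = 4) against 63.5% ± 11.7 (SD, n = 6), with limma's adjusted p = 0.295. A second intronic Camk1d tile went the other way without overlap, at 45.1% ± 8.59 (SD, n = 4) against 61.0% ± 3.84 (SD, n = 4), with limma's adjusted p = 0.696. Exonic tiles of Rcan1 and Cabin1, which encode inhibitors of the phosphatase calcineurin, were lower in HCR without overlap. Rcan1 was at 91.7% ± 2.30 (SD, n = 4) against 100% in all 3 LCR rats with a value, and Cabin1 at 87.4% ± 6.76 (SD, n = 4) against 97.8% ± 2.30 (SD, n = 5). The promoter tile of Nfatc2, a transcription factor that calcineurin activates, was at 17.2% ± 2.76 (SD, n = 4) and 10.5% ± 3.03 (SD, n = 6). Limma's adjusted p was 0.388 for Rcan1, 0.482 for Cabin1 and 0.403 for Nfatc2.

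Last, the tiles of other listed genes whose levels followed each anchor most closely over the rats were sought, as a description. The search covered 1002 tiles and 10 rats for Pde11a. The closest were intronic tiles of Prep (Pearson's r = 0.994) and of Syn3 with Timp3 (r = 0.977) and a tile upstream of Pdpn (r = 0.975). The search for Camta1 covered 1026 tiles and 9 rats, and the closest were tiles at an intron of Chd7 (r = 0.992), an exon of Pcna with Tmem230 (r = 0.984) and the promoter of Meg3 (r = 0.973). All of these tiles were selected by the study for a difference between the same lines, which raises such values. Some of the searched tiles, like the anchors, were also listed for a correlation with VO2max over the study's rats, which raises them too. The paper names Chd7 among the genes of such tiles. The highest of about 1000 values is also high by the search itself. In each of the tiles named, the mean was higher in HCR, as at the anchors: 65.6% against 41.3% at Prep and 44.9% against 34.8% at Chd7.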

How the data were processed

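Reads were trimmed (Trim Galore 0.6.10) and mapped with Bismark and Bowtie2 to the build mRatBN7.2 (rn7) by the authors, who then used methylKit to drop CpGs with too few or too many reads and to sum the rest in tiles of 1000 bp. They deposited 1 percent value per tile and rat, without read counts, so the test on counts of the study's methods was not run. Every sample column was used (0 left out). The HCR rats that the study excluded have no column. Their exclusion followed a quality control that drew in part on principal component analysis. What it did to the spread within the HCR line was not tested. Columns of the study's tables with its own differences and p-values were not used. Gene and feature of a tile came from those tables (1999 and 662 rows read, the former a part of its table), RefSeq tables of GRCr8 gave names, gene order and promoters only, and tile annotation, CpG counts and start site tiles, planned from an annotation of mRatBN7.2, were left out.

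The lines were compared with limma 3.58.1 (R 4.3.3), using a trend of variance with mean and no covariates, in the 176004 tiles with at least 3 values per line and some variation, with Benjamini-Hochberg adjustment over all of them. A call needed an adjusted p under 0.1 and at least 5 points. The script was tested on simulated data with known differences. Each rat was 1 replicate. Python 3.11.15, NumPy 2.4.6, pandas 2.3.3 and Matplotlib 3.10.9 were used for summaries.

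The members, gene lists and tests were chosen with earlier results of these data known. Named were the anchors, any called neighbour, the 3 nearest tiles per side, neighbours without overlap and at least 5 points, the 5 of smallest p with at least 5 points, the lowest, the highest and the most variable tile of each window, tiles of both genes outside the windows without overlap, 4 tiles per gene list and 3 tiles per anchor by likeness. The exon tile of Camta1, window edges, adjoining tiles, the second Camk1d tile and the most negative Camta1 tile were added after their values were seen. Alternatives were the logit scale, complete tiles, no trend, rat means set equal, quantile normalization, mean level as a covariate, unadjusted limits, a window of 100 kb and leaving out each rat.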

Additional observations from a re-analysis of the deposited data

Results flagged for a closer look

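Of 59 groups of rats checked in the named tiles, 8 held 1 rat far from the rest of its line by Dixon's criterion at the 95% level. Chance alone gives about 1 in 20 groups for normal values in tiles not chosen by them. The named tiles were chosen in part by their values, such as the largest range, so the count cannot be set against that rate. At the Pde11a tile 10 kb above the anchor, HCR rat 1 read 69.8% while the others of its line read 82.9% to 84.7%. In the same tile LCR rat 24 read 84.5% and the others 74.6% to 77.5%. In the unmethylated Pde11a tile 160 kb below, LCR rat 18 read 1.66% and the others 0.687% to 0.986%. At the Camta1 tile 16 kb below the anchor, HCR rat 1 read 36.1% and the others 57.3% to 59.0%. At 8 kb above, LCR rat 30 read 50.5% and the others 72.7% to 84.3%, and at 9 kb above, LCR rat 22 read 68.0% and the others 84.1% to 90.0%. At 51 kb below, LCR rat 26 read 86.9% and the others 95.3% to 100%. At 143 kb above, HCR rat 15 read 0% and the others 53.8% to 61.0%. These rats are not the same from tile to tile, apart from HCR rat 1, which was low in 2 of them.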

How the results depend on the processing

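No paired analysis was possible because the rats of the lines are separate animals and the labels name no pairs. Quantile normalization took the anchor differences to 6.14 (Pde11a) and 5.12 points (Camta1). It turned the neighbours' median differences to -0.253 and -1.43 points, and that of all tiles to -0.241. No cause was tested. At unadjusted p under 0.05 with at least 5 points, 1 Pde11a and 4 Camta1 neighbours, 11 tiles of the phosphodiesterase and cAMP list, 5 of the calmodulin list and 10722 of the table passed. The tiles of the gene lists had been chosen by the study for their difference. The 2 calls of the phosphodiesterase and cAMP list became 0 on the logit scale and under the covariate, and 1 without the trend, after quantile normalization, with rat means set equal or in tiles measured in every rat. The Pde7b tile is not among the tiles measured in every rat. The 151 calls of the table became 67 on the logit scale, 262 without the trend and 36 under the covariate.

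With each rat left out in turn, the anchor differences ran from 9.72 to 13.9 points (Pde11a) and 8.84 to 11.03 (Camta1, which could not be fitted without HCR rat 11, 15 or 19, nor among tiles measured in every rat), the neighbours' medians from 1.11 to 4.64 and 1.10 to 3.97, neighbours called from 0 to 0, the phosphodiesterase and cAMP list from 0 to 1, the calmodulin list from 0 to 0 and the table from 22 (without HCR rat 1) to 100 (without HCR rat 15). No named neighbour with a test reached an adjusted p under 0.1 in limma with at least 5 points under any alternative run. All 165 alternative values of the neighbours named for a small p or for no overlap kept their direction. Part of them could not change. The logit scale, no trend and complete tiles use the same difference as the main fit. Leaving out a rat without a value in the tile repeats it too. The count is therefore no measure of stability. Beyond those given in the report, differences moved by over 1.5 times in the Camta1 tiles 74 kb above (4.99 points after quantile normalization, 4.95 under the covariate) and 18 kb below (-13.9 after quantile normalization) and the Pde11a tiles 96 kb (-9.81 after quantile normalization) and 129 kb below (5.87 under the covariate). Depth per tile is unknown, and 4 rats against 6 limit what any single tile can show.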
